A study of Mus musculus with 8 samples.

Results

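The 10 integrin genes that mark or guide lymphocytes, Itga4, Itgb7, Itgb1, Itgae, Itgal, Itgb2, Itgam, Itgax, Itga2 and Itga6, were followed in RNA-seq of sorted mouse bone marrow cells, 4 libraries from wild-type mice and 4 from TOX knockout mice. TOX is a nuclear HMG-box protein of developing lymphocytes, and the series title concerns a common progenitor of innate lymphoid cells (ILCs). The genes were taken by symbol from a table of 23846 entries. All 10 were found, each in 1 entry. The labels give the genotype of each sample but not the knockout allele, the age or strain of the mice, or the surface markers of the sort. They also do not say that each sample came from a separate mouse, so p-values measure the spread between these libraries, part of which may be technical. Nor do they say whether an integrin was itself a sort marker, which would limit how far its level could differ between groups.

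Integrins are surface receptors made of 1 alpha and 1 beta chain, and a chain reaches the surface only with a partner. Itga4 with Itgb7 forms α4β7, which binds MAdCAM-1 on vessels of the gut and is carried by early ILC progenitors in mouse marrow, and Itga4 with Itgb1 forms α4β1, which binds VCAM-1. Itgae also pairs with Itgb7 and holds lymphocytes to E-cadherin of epithelium. Itgb2 pairs with Itgal in LFA-1, which binds ICAMs on other cells, and with Itgam in Mac-1 and Itgax in CD11c, which are best known from myeloid cells. Itga2 (CD49b, a marker of mouse NK cells) and Itga6 (a laminin receptor chain) pair with Itgb1.

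In mm10 coordinates of the deposited table, counted from 1, Itga4 spans chr2:79255426-79333114 on the forward strand and Itgb7 spans chr15:102215995-102231935 on the reverse strand. Itgal, Itgam and Itgax lie on the forward strand of chromosome 7. Itgam (chr7:128062640-128118491) ends 11.1 kb before Itgax begins, and Itgal lies 728 kb before Itgam. All 10 genes are protein-coding in GENCODE M21, on the chromosome the table gives.

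The 250 bases before the annotated start are shown for Itga4 and Itgb7, which encode the chains of α4β7, and for Itgam, the chain with the highest log2 fold change of the tested integrins. The sequences are from RefSeq on GRCm38.p6, which held 6 of the 10 genes, and run 5′ to 3′ on the strand of the gene. They cover chr2:79255176-79255425 (forward strand) for Itga4, chr15:102231936-102232185 (reverse strand) for Itgb7 and chr7:128062390-128062639 (forward strand) for Itgam. Capitals mark a match on either strand to the RUNX motif TGTGGT, the PU.1 motif GAGGAA, the GATA motif AGATAA or the E-box CAGCTG.
Itga4: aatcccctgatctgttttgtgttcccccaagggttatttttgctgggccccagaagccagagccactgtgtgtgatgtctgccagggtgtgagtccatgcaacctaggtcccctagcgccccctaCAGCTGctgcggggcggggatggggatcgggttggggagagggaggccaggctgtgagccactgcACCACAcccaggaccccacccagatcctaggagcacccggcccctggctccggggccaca
Itgb7: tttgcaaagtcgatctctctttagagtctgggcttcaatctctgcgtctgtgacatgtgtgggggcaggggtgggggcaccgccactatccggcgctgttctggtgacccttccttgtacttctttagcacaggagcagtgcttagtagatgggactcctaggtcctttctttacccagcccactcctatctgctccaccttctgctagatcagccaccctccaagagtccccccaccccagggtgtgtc
Itgam: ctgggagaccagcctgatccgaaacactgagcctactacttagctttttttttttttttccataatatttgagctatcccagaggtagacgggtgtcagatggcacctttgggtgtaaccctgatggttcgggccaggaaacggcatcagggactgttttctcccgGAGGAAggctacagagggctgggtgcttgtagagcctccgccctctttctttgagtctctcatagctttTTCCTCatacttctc
The Itga4 sequence held 1 E-box beginning 125 bases before the start and 1 RUNX match beginning 60 bases before it. The Itgam sequence held 2 PU.1 matches, which begin 84 and 15 bases before the start, and the Itgb7 sequence held none of the 4 motifs. Among 32851 promoter windows of the same length, 14.0% held the RUNX letters, 23.3% the PU.1 letters, 9.99% the GATA letters and 4271 windows the E-box. No marked letters overlapped between motifs, and a match describes letters only.

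Levels are the FPKM values that the authors deposited, read fragments per length of transcript, scaled to the size of each library. Libraries are named by the number in the table's column names, 10, 11, 16 and 29 in each group. Tox itself was at 92.4 to 123 FPKM in wild type, and its knockout values were 0.107 to 2.34, so every library matched its label. Between 10425 and 10481 entries exceeded or equalled 1 FPKM in each wild-type library, and between 7328 and 10600 did in each knockout library, fewest in libraries 16 and 29. The files hold no read counts. Steps between low values gave depths within a barcode run that differed by at most 1.44 times from the library used as reference. In the run of libraries 10 and 16, relative to wild-type library 10, knockout library 16 was highest at 1.44 and knockout library 10 lowest at 0.722. In the run of libraries 29 and 11, relative to wild-type library 29, knockout library 29 was lowest at 0.702. Why knockout library 16 had the fewest entries was not tested. Of 8 ILC progenitor markers, all 8 fell (median log2 fold change -3.61), and their summed FPKM was 1909 to 2745 in wild type, against 109 to 439 in knockout. The list was drawn up with results of these libraries known and is not independent evidence of its direction.

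By group mean, transcripts of α4β7, α4β1 and LFA-1 chains were abundant in both genotypes, though Itgb2 was at 2.07 FPKM in knockout library 16. Those of the epithelial and myeloid alpha chains were scarce in wild type, and Itgam was higher in 3 of 4 TOX knockout libraries than in any wild-type library. In wild type, 5 chains were abundant per length, with mean levels of 83.8 FPKM for Itga4, 54.9 for Itgb7, 50.1 for Itgal, 41.2 for Itgb2 and 32.5 for Itgb1. Neighbours in this order overlapped between libraries, and together these chains make up α4β7, α4β1 and LFA-1. Itgam was next at 2.10, below every wild-type value of Itgb1, and Itgax, Itga6, Itgae and Itga2 had wild-type means under 1 FPKM, at 0.858, 0.816, 0.423 and 0.148. In knockout the same 5 chains had the highest means, from 72.3 for Itga4 to 19.1 for Itgb1, with Itgam at 9.22.

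**Figure D1:**
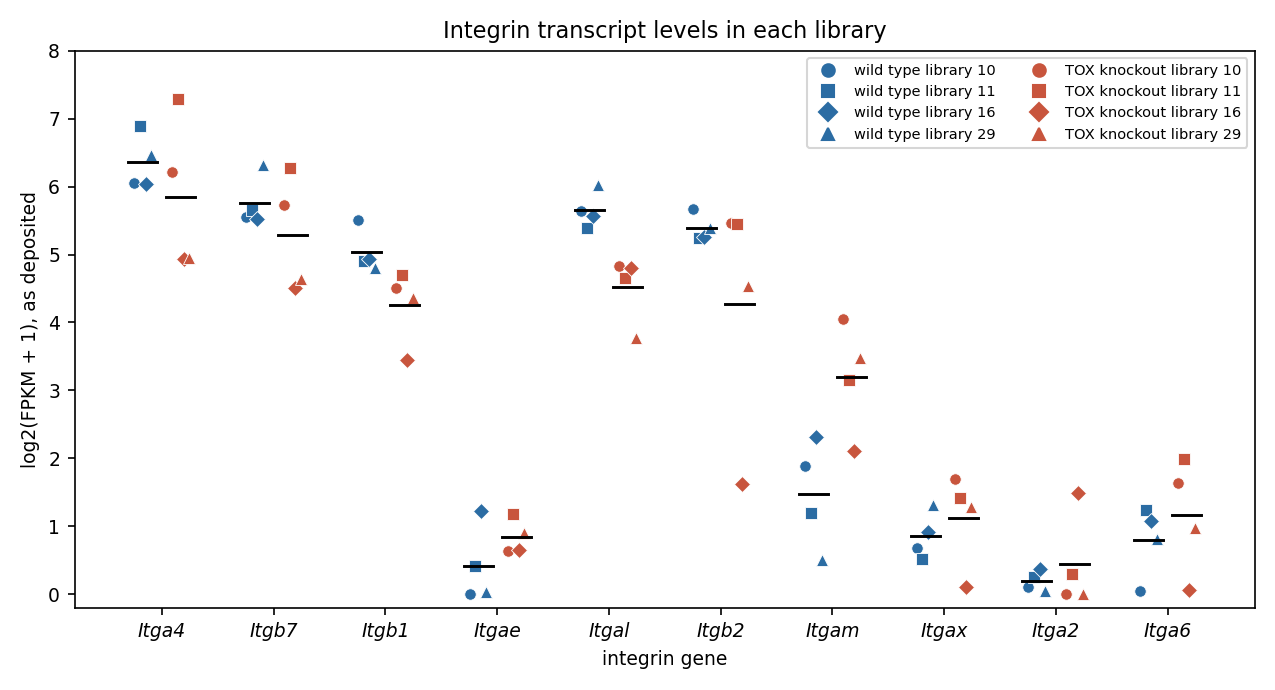
Levels of the 10 integrin genes as log2(FPKM + 1) on the vertical axis, with 1 point per library (blue, wild type; red, TOX knockout; shape, library number) and a black line at the mean of each group of 4. Points of the groups overlap for 8 genes; all 4 knockout points lie below the wild-type points for Itgal and Itgb1.

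Groups were compared with limma on log2(FPKM + 1), over 10693 entries with a mean of at least 1 FPKM, and a gene was called at a Benjamini-Hochberg adjusted p under 0.05. Of the 10 integrin genes 8 entered the test, since Itgae and Itga2 stayed under the filter. With values as deposited 0 of the 8 were called lower, against 1.72% of all tested entries, and 0 were called higher, against 0.196%. Without adjustment, Itgal was lower and Itgam higher at p under 0.05, against 17.5% of entries lower and 3.11% higher. The median log2 fold change, knockout minus wild type, was -0.50 over the 8 integrins and -0.52 over all tested entries. Median-ratio scaling between libraries, which brought the median of all entries to -0.04, brought that of the integrins to 0.11. With that scaling 0 of the 8 were called lower (1.11% of all entries) and 1, Itgam, was called higher (0.870%).

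With values as deposited, the log2 fold changes of both α4β7 chains lay close to the median of all tested entries. Itga4 was at 65.7, 117, 64.8 and 87.5 FPKM in the wild-type libraries (10, 11, 16 and 29, an order kept throughout). Its knockout values were 73.4, 156, 29.7 and 30.0. The lowest and the highest of the 8 values were both from knockout libraries, and the groups overlapped. Itga4 had a log2 fold change of -0.51 (SE 0.51, 95% interval -1.61 to 0.58, limma adjusted p = 0.523), and 50.4% of tested entries had a lower one. In bulk cells, fewer cells of a type and less RNA per cell cannot be told apart.

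Itgb7, the beta chain that makes α4 a gut homing receptor, followed the same order of knockout libraries. It was at 45.8, 49.6, 44.9 and 79.1 FPKM in wild type and at 51.9, 76.7, 21.7 and 23.8 in knockout. The groups overlapped, with knockout libraries 16 and 29 below all wild-type libraries and the other two above wild-type libraries 10, 11 and 16. Itgb7 had a log2 fold change of -0.48 (SE 0.44, 95% interval -1.43 to 0.47, limma adjusted p = 0.495), above that of 52.6% of entries. An interval of this width spans both no change and a fall of more than 2-fold in Itga4 and Itgb7, so equal levels are not shown.

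The 2 low values of each chain came from the libraries with the fewest detected entries. With median-ratio scaling, whose factors were 0.422 and 0.687 for knockout libraries 16 and 29 and 1.15 to 1.31 for the others, scaled Itga4 was at 54.3, 94.6, 54.4 and 66.7 in wild type and at 63.7, 122, 70.4 and 43.7 in knockout. Scaled Itgb7 was at 37.9, 40.0, 37.7 and 60.3 in wild type and at 45.1, 60.1, 51.5 and 34.7 in knockout. The log2 fold changes were then 0.09 (SE 0.32) and 0.12 (SE 0.26), with the sign turned, and neither was called (limma adjusted p = 0.899 and 0.823). The 95% interval ran from -0.62 to 0.80 for Itga4 and from -0.44 to 0.69 for Itgb7. On the same scaling the 8 ILC progenitor markers had a median of -3.19, and all 8 fell.

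Itgb1, the shared beta chain of α4β1, α2β1 and α6β1, was at 44.4, 29.1, 29.4 and 27.0 FPKM in wild type and at 21.8, 25.1, 9.93 and 19.5 in knockout. All 4 knockout values lay below the lowest wild-type value. For Itgb1 the log2 fold change of -0.78 (SE 0.38) was not called (limma adjusted p = 0.259), and with median-ratio scaling it was -0.20 (SE 0.26) with overlapping groups. Itgb1 and Itgal were the 2 of 8 tested integrins whose groups did not overlap with knockout lower, against 11.0% of all entries, and 0 of 8 did so with knockout higher, against 1.09%. With median-ratio scaling 0 of 8 were apart with knockout lower (6.37% of all entries) and 1, Itgam, with knockout higher (5.20%).

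Itgae, the partner of Itgb7 on epithelial lymphocytes, was at most 1.33 FPKM in any library. It was listed at 0, 0.334, 1.33 and 0.0255 FPKM in wild type and at 0.561, 1.27, 0.566 and 0.874 in knockout. The knockout values lay inside the wild-type range. A fit with no filter on low values gave 0.43 on the log2 scale (SE 0.30, limma adjusted p = 0.527).

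Among chains of the β2 family, Itgal had knockout levels below wild type and Itgam had mostly higher ones. Itgal, the alpha chain of LFA-1, was at 48.8, 40.8, 46.5 and 64.2 FPKM in wild type and at 27.6, 24.2, 26.9 and 12.6 in knockout. The groups did not overlap. Its log2 fold change was -1.14 (SE 0.36, 95% interval -1.92 to -0.36), a difference of -0.62 from the median of all entries, and it was not called (limma adjusted p = 0.135). With median-ratio scaling it was -0.54 (SE 0.37, limma adjusted p = 0.454). Knockout library 16 was then the highest of all 8 at 63.8, while the other 3 knockout libraries, at 18.4 to 24.0, lay below all wild-type libraries.

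Itgb2, the beta chain of LFA-1 and Mac-1, was at 49.8, 36.9, 37.2 and 40.8 FPKM in wild type and at 43.3, 42.6, 2.07 and 22.2 in knockout. Knockout libraries 10 and 11 lay inside the wild-type range, and library 16 stood far below it. The log2 fold change of -1.12 (SE 0.70, limma adjusted p = 0.346) rested on that library, since without knockout library 16 it was -0.24 (SE 0.31). In knockout library 16 the FPKM of Itgal, Itgam and Itgax summed to 14.7 times that of Itgb2, and in the other 7 libraries to 0.792 to 1.62 times. The chains of α4β7 stayed in proportion there: Itga4 over Itgb7 was 1.37 in knockout library 16, 1.26 to 2.03 in the other knockout libraries and 1.11 to 2.37 in wild type.

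Itgam, the alpha chain of Mac-1 on neutrophils and monocytes, was at 2.69, 1.28, 3.99 and 0.425 FPKM in wild type and at 15.5, 7.87, 3.33 and 10.2 in knockout. Knockout libraries 10, 11 and 29 lay above all wild-type libraries, and knockout library 16 lay below wild-type library 16. Its log2 fold change was 1.72 (SE 0.53, 95% interval 0.58 to 2.86), higher than that of 98.5% of tested entries, and it was not called (limma adjusted p = 0.122). With median-ratio scaling the groups did not overlap (0.324 to 3.34 in wild type, 6.16 to 14.8 in knockout), the log2 fold change was 2.15 (SE 0.45), and Itgam was called (limma adjusted p = 0.0387). It was also called with quantile normalization (2.14, limma adjusted p = 0.0309), with library weights (2.21, 0.0106) and without knockout library 16 (2.08, 0.0317). Over all entries 89, 271 and 126 were called higher in these fits, against 21 in the main fit. Knockout library 16, left out in the last fit, held the lowest knockout value of Itgam as deposited.

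**Figure D2:**
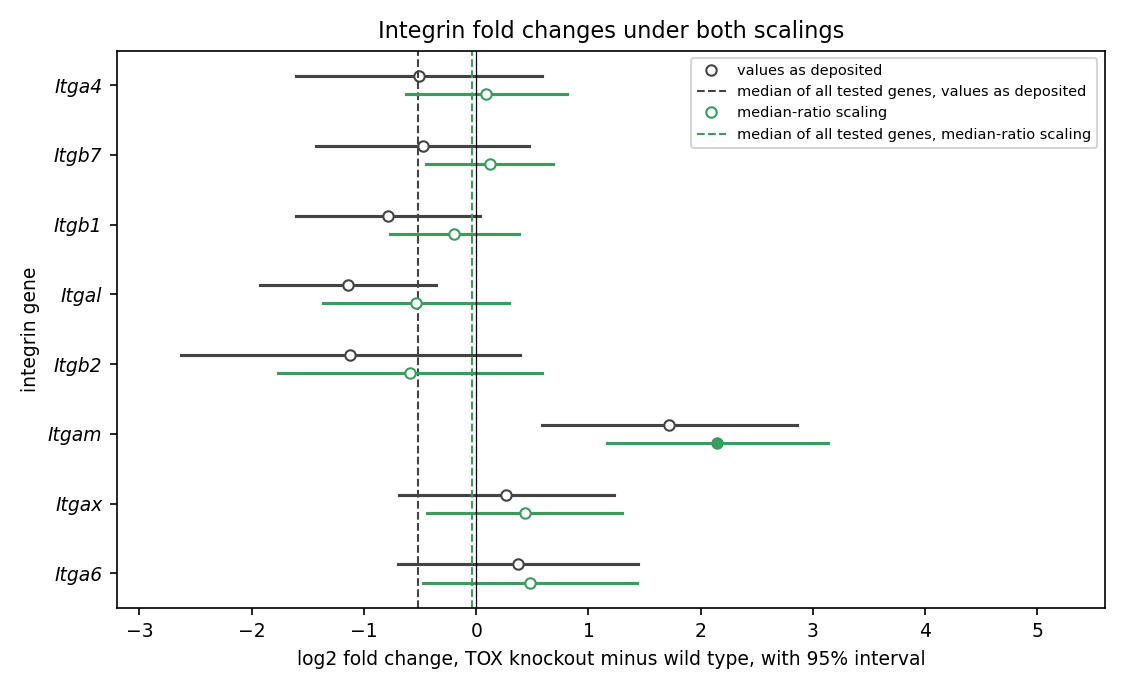
Log2 fold changes of the 8 tested integrins (horizontal axis, TOX knockout minus wild type) with 95% intervals from limma, for values as deposited (grey) and with median-ratio scaling (green); filled points were called at an adjusted p under 0.05, and dashed lines mark the median of all tested entries at -0.52 and -0.04. Itga4 and Itgb7 lie on the dashed line of each scaling or close to it, and Itgam with median-ratio scaling is the 1 filled point.

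Summed markers of neutrophils were higher in knockout, as Itgam mostly was. All 14 neutrophil markers were in the table, and their summed FPKM was 5723, 4118, 9785 and 280 in wild type, while the knockout sums were 38352, 13060, 12167 and 46437, without overlap. Most of the sum in every library was S100a8 and S100a9. Taken singly, S100a8, S100a9, Camp, Mmp8 and Retnlg did not overlap between groups, and the other markers of the list did. Over all tested entries 1.09% were higher in knockout without overlap. With values as deposited the median log2 fold change of the 14 was 3.05 and 0 of them were called. With median-ratio scaling 1, Mmp8, was called higher, against 0.870% of all entries. Elane, Prtn3 and Ctsg, proteases of early neutrophil granules, were listed at 0 in wild-type library 29, where Itgam was lowest. In wild-type library 10, Ctsg was also listed at 0 and Elane was at 0.0855, both below library 11 (0.700 and 0.764), while Itgam was higher in library 10 than in library 11. Within wild type, the library with the highest neutrophil sum, 16, also had the highest Itgam. Knockout library 16 had a higher sum than wild-type library 16 (12167 against 9785) and lower Itgam (3.33 against 3.99). Knockout library 29 had a higher sum than knockout library 10 (46437 against 38352) and lower Itgam (10.2 against 15.5). Monocyte and macrophage markers, 7 of 8 in the table, had wild-type sums of 150 to 318 and knockout sums of 112 to 634, which overlapped, with knockout library 16 lowest. The largest part of each wild-type sum was Ccr2, a chemokine receptor, at 133 to 148 FPKM, with Ly6c2 close behind in library 16 at 140. In knockout Ccr2 was at 15.1 to 79.2 (log2 fold change -1.94, limma adjusted p = 0.0522). Cd68 was the other gene of the list with a negative log2 fold change (-0.64, limma adjusted p = 0.486). The list had a median log2 fold change of 1.54; 0 of its 7 tested genes were called as deposited, and 1, Ms4a6c, was called higher with median-ratio scaling (limma adjusted p = 0.0147). Csf1r, the receptor of macrophage colony-stimulating factor, was higher in all knockout libraries than in any wild-type library (1.59, limma adjusted p = 0.0658). The part of these cells in the Itgam values was not tested. Positive medians were not limited to these lists. As deposited, the median log2 fold change was 2.79 for basophil and mast cell markers and 2.07 for erythroid markers. It was 1.69 for dendritic cell markers and 1.15 for both B cell and T cell markers. Megakaryocyte and platelet markers were at 0.12 and NK cell markers at -1.21, against -0.52 over all tested entries. Wild-type library 29, with the lowest neutrophil sum, had the third highest Itga4.

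**Figure D3:**
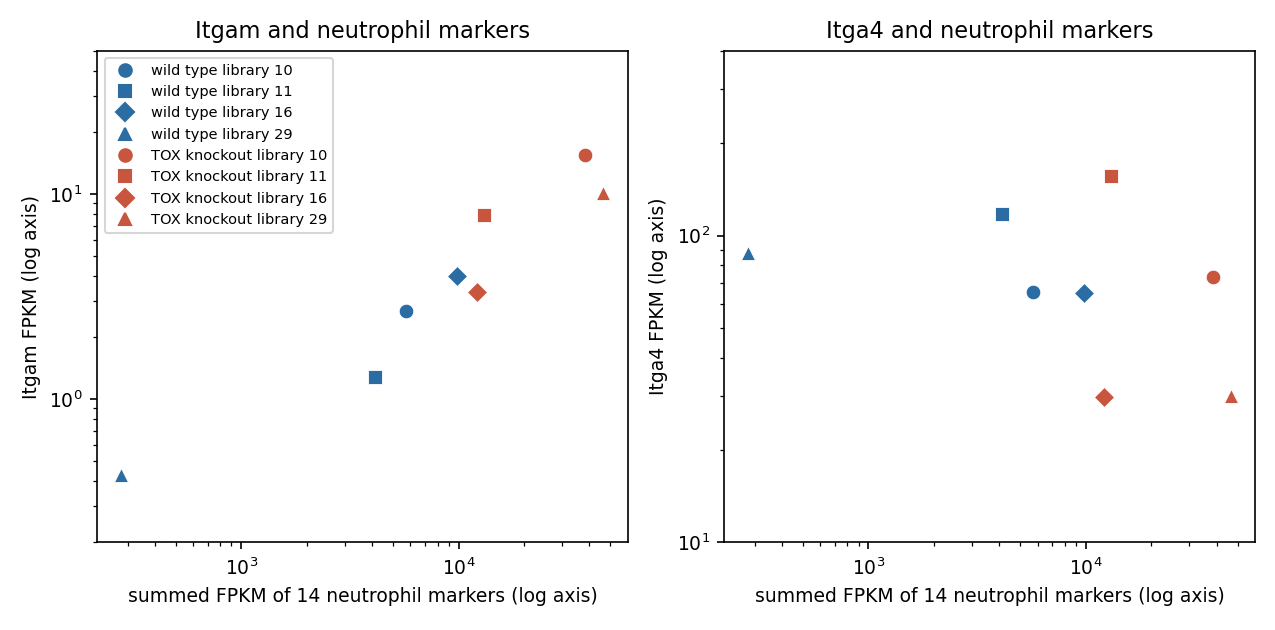
Level of Itgam (left) and Itga4 (right) against the summed FPKM of 14 neutrophil markers, all on log axes, with 1 point per library (blue, wild type; red, TOX knockout; shape, library number). Itgam runs from 0.425 in the library with a neutrophil sum of 280 to 15.5 in 1 with 38352, while Itga4 is at 30.0 and 73.4 in the 2 libraries with the highest sums.

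Itgax (CD11c, abundant on dendritic cells) was at 0.611, 0.433, 0.891 and 1.50 FPKM in wild type and at 2.24, 1.68, 0.0784 and 1.44 in knockout. Knockout library 16 was the lowest of all 8, and the groups overlapped. The difference of 0.27 on the log2 scale (SE 0.44) was not called (limma adjusted p = 0.706). Dendritic cell markers, 7 of 7 in the table, had wild-type sums of 31.8 to 52.1 and knockout sums of 43.7 to 128. Of the 5 tested 0 were called as deposited. With median-ratio scaling 3 (Flt3, Siglech and Irf8) were called higher, against 0.870% of all entries. Batf3 and Xcr1, of the same list, were at -0.97 and -0.95 on the log2 scale as deposited, not called, and at -0.39 and -0.55 with that scaling. The part of dendritic cells in the Itgax values was not tested.

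Itga6 was at 0.0307, 1.37, 1.11 and 0.750 FPKM in wild type and at 2.12, 2.98, 0.0428 and 0.958 in knockout. Each group held 1 library near 0, wild-type 10 and knockout 16, and the difference was 0.37 on the log2 scale (SE 0.49, limma adjusted p = 0.634). Itga2 was at 0.0765, 0.187, 0.295 and 0.0337 in wild type and at 0, 0.233, 1.80 and 0.00756 in knockout. Knockout library 16 held the 1 value above 1, and with no filter the difference was 0.26 on the log2 scale (SE 0.32, limma adjusted p = 0.644). NK cell markers, 6 of 6 in the table, had wild-type sums of 154 to 234 and knockout sums of 42.3 to 554. The highest sum was that of knockout library 10, where Gzma was at 317 FPKM and Klrd1 at 228. Of the 5 tested 4 had a negative log2 fold change (median of the 5, -1.21). Eomes was the 1 called lower, against 1.72% of all tested entries. Megakaryocyte and platelet markers, 7 of 7, had sums of 6.51 to 9.25 and 1.72 to 29.4.

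The column names place libraries 10 and 16 in 1 run of barcodes (17 to 20) and libraries 29 and 11 in another (40 to 43), so that each run held 2 wild-type and 2 knockout libraries. Within the first and the second run the log2 fold change was -0.47 and -0.55 for Itga4, -0.42 and -0.54 for Itgb7, and -0.78 and -1.49 for Itgal. It was -1.24 and -0.33 for Itgb1, -1.92 and -0.32 for Itgb2, and 0.98 and 2.46 for Itgam. Each of these 6 genes kept its direction in both runs, and none was called in either. Itgax and Itga6 passed the filter in the second run only, at 0.44 and 0.45.

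Ratios between chains that share a partner were compared within each library. Scaling between libraries cancels there only for chains well above the added 1 FPKM. The ratios with Itgam, Itgae, Itgax, Itga2 or Itga6 therefore depend on it and on the pseudocount. Of 6 ratios, that of Itgam to Itgal, the myeloid and the lymphoid alpha chain of Itgb2, was the 1 whose groups did not overlap. On the scale of log2 of (FPKM + 1) it was -3.75, -4.20, -3.25 and -5.52 in wild type and -0.79, -1.51, -2.69 and -0.29 in knockout. The means differed by 2.86 (exact two-sided permutation p = 0.0286, the smallest that 4 against 4 libraries can give; 0.114 after Benjamini-Hochberg adjustment over the 6 ratios). The difference was 1.76 in the first barcode run and 3.96 in the second. Itgam stayed below Itgal in all 8 libraries.

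The ratio of Itgb7 to Itgb1, the beta chains that Itga4 can take, was 0.05, 0.75, 0.59 and 1.52 in wild type and 1.21, 1.58, 1.05 and 0.28 in knockout. The groups overlapped and the means differed by 0.31 (exact permutation p = 0.457, adjusted 0.549). The direction turned between barcode runs, at 0.82 and -0.20. The ratio of Itgax to Itgal differed by 1.41 and that of Itga4 to Itga6 by -0.88 (exact permutation p = 0.0571 each, adjusted 0.114), each with 1 knockout library inside the wild-type range. With pseudocounts of 0.1 and 0.01 the exact permutation p was 0.171 and 0.343 for Itgax to Itgal and 0.314 and 0.457 for Itga4 to Itga6. The ratios of Itgae to Itga4 and of Itga2 to Itga6 differed by 0.94 and -0.12 (exact permutation p = 0.2 and 0.943, adjusted 0.3 and 0.943). With pseudocounts of 0.1 and 0.01 these differences became 2.08 and 3.31 for Itgae to Itga4, and -0.26 and -1.08 for Itga2 to Itga6.

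**Figure D4:**
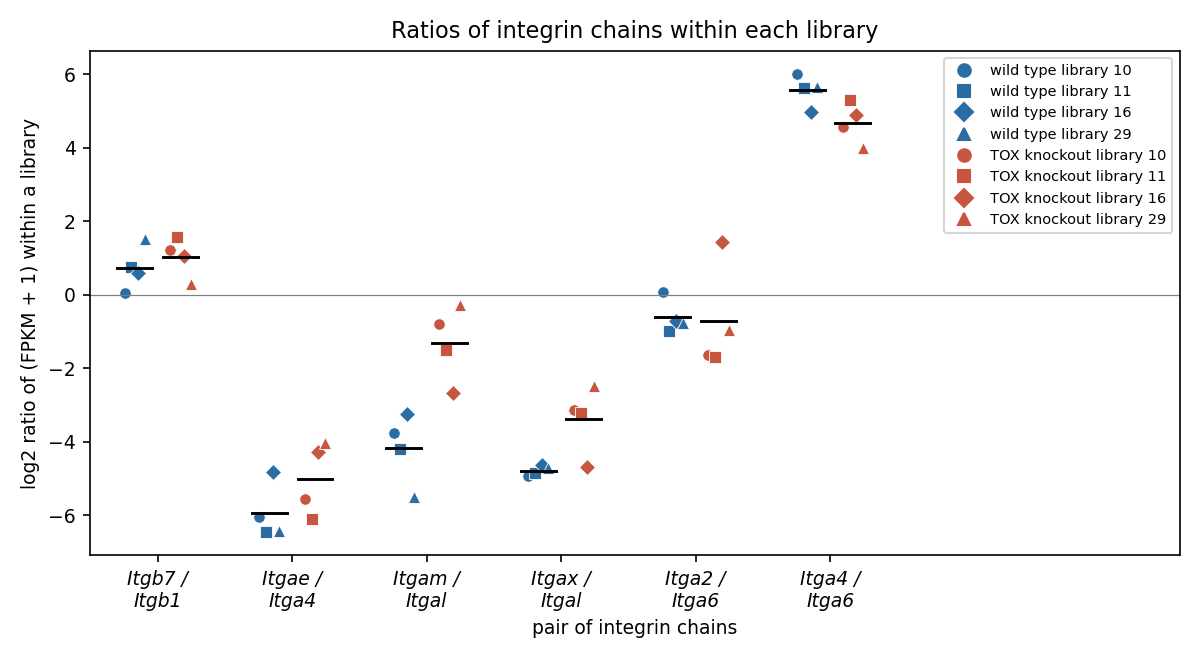
Log2 ratios of (FPKM + 1) between 6 pairs of integrin chains that share a partner, 1 point per library (blue, wild type; red, TOX knockout; shape, library number), with a black line at the mean of each group of 4. The points of Itgam over Itgal lie between -5.52 and -3.25 in wild type and between -2.69 and -0.29 in knockout; the groups of the other 5 pairs overlap.

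Of 17 other integrin subunit genes 5 passed the filter, and 1 fell (1.72% of all tested entries) and 0 rose (0.196%). Itgb3, the beta chain of the platelet and vitronectin receptors, was at 16.5, 13.5, 18.1 and 19.4 FPKM in wild type and at 2.68, 2.94, 5.58 and 0.631 in knockout. The groups did not overlap, and Itgb3 fell by 2.33 on the log2 scale (SE 0.45, limma adjusted p = 0.0199). With median-ratio scaling it was not called (-1.80, limma adjusted p = 0.122). Its alpha partners were not called: Itgav was at -0.44 (SE 0.42, limma adjusted p = 0.502) and Itga2b at -0.10 (SE 0.52, limma adjusted p = 0.912), and with median-ratio scaling at -0.06 and 0.25. Itgb2l, a relative of Itgb2 known from mouse neutrophils, was at 3.31, 0.525, 3.56 and 0.0844 in wild type and at 12.7, 5.22, 2.45 and 12.3 in knockout (log2 fold change 1.73, limma adjusted p = 0.164). Knockout library 16 was the 1 knockout library inside the wild-type range, as for Itgam. Whether reads of Itgb2 and Itgb2l were split between these similar genes was not tested.

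Of 26 genes that switch integrins on or tie them to the cytoskeleton 23 were tested. Of these 1 fell, against 1.72% of all tested entries, and 0 rose, against 0.196%. Their median log2 fold change was -0.42 (0.18 with median-ratio scaling, where 0 were called). Skap1, an adaptor that carries signals to LFA-1 in T cells, was at 27.7, 46.2, 22.6 and 34.9 FPKM in wild type and at 7.37, 5.52, 5.80 and 0.104 in knockout. It fell by 2.86 on the log2 scale (SE 0.59, limma adjusted p = 0.0272), and with median-ratio scaling it was not called (-2.39, limma adjusted p = 0.0969). Cyth1, encoding cytohesin-1, which binds the tail of Itgb2, was at 14.6 to 18.6 in wild type, and its knockout values were 1.28 to 8.93 (-1.54, limma adjusted p = 0.119). Talin, Tln1, and kindlin-3, Fermt3, which bind beta tails to activate integrins, were at -0.87 and -1.07 (limma adjusted p = 0.338 and 0.243).

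Of 14 ligand genes 7 were tested and 0 were called, also with median-ratio scaling. As deposited, Icam2 was lower and Vcam1 and Spp1 were higher at an unadjusted limma p under 0.05. Over all tested entries the shares were 17.5% lower and 3.11% higher. Vcam1, the ligand of α4β1 and a marker of marrow stroma and macrophages, was at 0.0577, 0.133, 4.59 and 0.568 FPKM in wild type and at 15.8, 0.979, 5.71 and 18.9 in knockout (log2 fold change 2.18, limma adjusted p = 0.155). The 3 knockout libraries 10, 16 and 29 exceeded all wild-type libraries, and library 11 did not. Spp1, osteopontin, was listed at 0, 0, 1.70 and 0.368 in wild type and at 4.04, 0.780, 4.18 and 2.19 in knockout (1.33, limma adjusted p = 0.179).

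Genes with the most similar profile were sought for 3 chains, as the smallest root-mean-square difference between centred log2(FPKM + 1) values over the 8 libraries, among 10648 genes. For Itga4 these were Tpm2, a tropomyosin, at 0.131, Gabarapl1, an autophagy gene, at 0.155 and Cd274, encoding PD-L1, at 0.189. Tpm2 was at 0.147 to 6.01 FPKM and Cd274 at 0.567 to 4.70, against 29.7 to 156 for Itga4. The added 1 FPKM narrows differences at such low levels, so closeness on this scale does not mean equal fold changes. For Itgb7 they were Paxbp1, at 0.108, Pag1, a membrane adaptor, at 0.149 and Chfr, a ubiquitin ligase, at 0.158. For Itgam they included Lgals3, galectin-3, at 0.253 and Lilrb3, an inhibitory receptor of myeloid cells, at 0.266.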

How the data were processed

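RNA was sequenced from sorted bone marrow cells of 4 wild-type and 4 TOX knockout samples, as low-input SMARTer cDNA on an Ion Proton, per the labels' protocols. The deposited FPKM values were made by the authors with Cufflinks on mm10, per the submitters' processing notes; an aligner, annotation or Cufflinks version was not given in the sources used here. Column names give the genotype and a number unlike the replicate numbers of the titles, so columns were assigned to groups only. Symbols shared by several of the 23846 entries (744 entries) were represented by the entry with the highest mean. No 2 libraries held identical values.

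The comparison used limma 3.58.1 (R 4.3.3, empirical Bayes with a mean-variance trend) on log2(FPKM + 1) as deposited, over 10693 entries with a mean FPKM of at least 1, with Benjamini-Hochberg adjustment and a threshold of 0.05. Fold changes on this scale understate those of low genes. The fit was tested on simulated data. Chain ratios were compared by exact permutation of 4 against 4 libraries. The depth of each library is unknown beyond the relative steps, so no counting intervals are given. Alternatives were pseudocounts, filters, scalings, library weights, the shared number as a block, barcode runs and left-out libraries. All 10 integrins are named; of each other integrin list up to 4 called genes or, with fewer than 2 called, the 2 with the smallest p; and the 3 closest profiles of Itga4, Itgb7 and Itgam. A further gene that this rule selects is not reported here. Icam2, Tln1, Fermt3, Itgav, Itga2b and the single marker genes were named after their values were seen. The members and lists were chosen with earlier results of these data known. Summed markers of the remaining cell types overlapped between groups: erythroid 5320 to 26830 FPKM in wild type and 10472 to 181578 in knockout, B cell 43.3 to 175 and 44.9 to 355, T cell 6.80 to 14.2 and 9.49 to 80.1, basophil and mast cell 74.9 to 245 and 138 to 688. The median log2 fold change of each of these lists was positive, and 0 of their genes were called as deposited. With median-ratio scaling 1 basophil and mast cell gene was called higher, against 0.870% of all entries.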

Additional observations from a re-analysis of the deposited data

Results flagged for a closer look

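Among the genes and ratios named above, 62 groups of 4 libraries were tested for a value whose gap to its nearest neighbour exceeded Dixon's limit at the 95% level as a share of the range of the group, which chance gives in about 1 in 20 groups, and 4 groups held one. Itgb7 reached 79.1 FPKM in wild-type library 29, while the other wild-type libraries held 44.9 to 49.6. Itgb1 reached 44.4 in wild-type library 10, while the others held 27.0 to 29.4. Itga2 was at 1.80 in knockout library 16, against 0 to 0.233 in the other knockout libraries. Vcam1 reached 4.59 in wild-type library 16, while the others held 0.0577 to 0.568.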

How the results depend on the processing

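No integrin was called lower under any of the 19 alternative fits, and 1, Itgam, was called higher (1 gene against 0) with median-ratio scaling, quantile normalization, library weights and without knockout library 16. Itgam was not called in the other 15 fits, where its log2 fold change stayed positive; over all 19 it ran from 0.98 to 2.46 (adjusted p from 0.0106 to 0.705). The direction turned for Itga4 (0.090 and 0.39) and Itgb7 (0.12 and 0.24) with median-ratio scaling and with knockout libraries 16 and 29 left out together, and for Itgb2 (0.071) in the latter; the cause was not tested. Itgal ran from -1.49 to -0.54 and Itgb1 from -1.24 to -0.20.

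Of all entries, 96 were lower and 10 higher with a pseudocount of 0.1, 67 and 7 with no filter, 106 and 10 with a filter at a mean of 5 FPKM, 119 and 93 with median-ratio scaling, 137 and 89 with quantile normalization and 457 and 271 with library weights, against 184 and 21. There were 5 and 0 in the first barcode run alone, 60 and 35 in the second, 149 and 15 with the run as a covariate, and 179 and 107 without knockout libraries 16 and 29. Leaving out 1 library gave 75 to 578 lower and 6 to 126 higher, with 0 integrins lower and 0 to 1 higher. Same-numbered libraries correlated at -0.02 to 0.26 after removal of group means, and 3 of 8 correlated best with their own number. With 4 libraries per group these values cannot decide whether the numbers pair the libraries. With the number as a replicate block 267 were lower and 77 higher, and 0 integrins were called in either direction. Leaving out 1 library moved the ratio of Itgam to Itgal between 2.41 and 3.32, and with pseudocounts of 0.1 and 0.01 it was 3.44 and 3.53 (exact permutation p = 0.0286). The other ratios that involve a chain near or under 1 FPKM moved in size or p with the pseudocount, as given above. Read depth is unknown, so small differences in Itgae and Itga2 may not be detectable here.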
